A study of Mus musculus with 8 samples.

Results

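The libraries described here are those of mouse embryonic fibroblasts (MEFs) given vitamin B12 with an inhibitor of MAT2A (B12 + MAT2Ai), set against MEFs of the same embryos given B12 alone (B12). They are 4 of the 8 RNA-seq libraries of the series, and the genes compared are the 19392, of 55487 in the table, that passed a filter on low counts. The filter asked for 10 reads at the median library size, or 0.283 CPM (read counts scaled to library size and given per 1000000 reads), in at least 2 libraries.

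All MEFs carried the reprogrammable i4F alleles on a C57BL/6 background: Rosa26-rtTA, which makes the doxycycline-dependent activator, and Tet-O-OSKM, a cassette of Oct4, Sox2, Klf4 and c-Myc under its control. MEFs named 61.3 and 61.5 came from separate embryos, and each was treated for 72 h in medium for induced pluripotent stem cells with doxycycline, so every library had the factors induced. The doxycycline concentration is 1 µg/mL in the sample labels and 1 mg/mL in the design text of the series and in the methods. The groups were B12 + MAT2Ai (2 µM B12 with 2 µM PF-9366), SAM (100 µM S-adenosylmethionine), NSC (10 µM NSC636819, which inhibits KDM4A and KDM4B, demethylases of histone H3) and B12 (2 µM). Each group had 1 library per MEF line. The p-values set a difference between groups against the spread left among all 8 libraries after group and line are taken into account. A culture with doxycycline alone was not analysed here, so the values below say what PF-9366 changed in the presence of B12 and not what B12 itself changed.

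Vitamin B12 is the cofactor of methionine synthase (MTR), which makes methionine from homocysteine. MAT2A joins methionine to ATP and makes S-adenosylmethionine, the methyl donor for DNA, RNA, histones, phosphatidylethanolamine and many other acceptors, and PF-9366 binds MAT2A away from its active site. The question of the comparison is which transcripts followed this step when B12 was supplied. Of the 17 genes called below, 9 stand in lists of sterol efflux or of fatty acid synthesis, without a test of enrichment. These lists hold 14 and 29 tested genes, and 0.0877% of all 19392 genes tested were called. The lists were written with earlier results of these data known. In these pathways oxysterols activate the liver X receptors (LXRs), nuclear receptors that pair with retinoid X receptors (RXRs) and switch on genes for cholesterol export and for the lipogenic factor SREBP1. SREBP1, the product of Srebf1, in turn drives genes that make and desaturate fatty acids.

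In B12 + MAT2Ai MEFs, 17 of 19392 genes changed past an adjusted p of 0.05, which is 0.0877% of the genes tested. Of these, 14 were higher (0.0722%) and 3 were lower (0.0155%). The higher genes included the sterol exporters Abcg1 and Abca1, the SREBP1 gene Srebf1, the stearoyl-CoA desaturases Scd1, Scd2 and Scd3, the acyl-CoA synthetase Acsl3, the phospholipid remodelling enzyme Lpcat3, the ubiquitin ligase Mylip, the metallothionein Mt2, and the secreted or matrix genes Mmp12, Cxcl14 and Ccn1. The lower genes included Siglec1 and Clec3b. The changes were small apart from Abcg1, with the other 16 between 0.39 and 0.97 on the log2 scale in size. Each of the 17 had the same direction in both MEF lines.

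The number of genes called depended on how the model was fitted. Without either B12 + MAT2Ai library the count was 1, and without the block for MEF line it was 0, with 358 genes at an unadjusted p under 0.05. Leaving out the B12 culture of MEF 61.3 gave 373 genes, of which 315 were lower, and leaving out that of MEF 61.5 gave 56, of which 40 were lower. It was 28 without either SAM library, 43 in DESeq2, 313 in the 4 libraries alone and 452 with no filter. The lists of LXR targets and of fatty acid synthesis share Srebf1. They gave 6 and 8 of the 313 calls in the 4 libraries alone and 6 and 7 of the 452 with no filter. In both fits most called genes were lower. Without the block for MEF line the lists gave 0 and 0. All 17 genes were among those called in DESeq2, in limma-voom, in the 4 libraries alone and with no filter. In data simulated on these libraries, the share of false calls among calls was above the threshold of 0.05 in some runs. Some of the 17 may therefore be false calls. The simulated data held no difference between MEF lines.

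The start sites of 3 of the higher genes are shown because their windows share a sequence of the kind that the LXR and RXR pair binds, 2 units of GGTTA or GGTCA in the same orientation with 5 bases between them. The windows are those RefSeq gives on GRCm38.p6, from 250 bases before the start to 50 bases from it on, written on the strand of the gene, and capitals mark the paired units, which here read on the opposite strand. Windows were at hand for 10 of the 17 genes, 13 windows in all, and the pair was found in 3 of them, in Abca1, Acsl3 and 1 of the 3 windows of Srebf1. On both strands it was found in 70 of 32851 windows, or 0.213%. The pattern was chosen with the genes known, and a match is a description of the letters and not evidence of binding.
Abca1: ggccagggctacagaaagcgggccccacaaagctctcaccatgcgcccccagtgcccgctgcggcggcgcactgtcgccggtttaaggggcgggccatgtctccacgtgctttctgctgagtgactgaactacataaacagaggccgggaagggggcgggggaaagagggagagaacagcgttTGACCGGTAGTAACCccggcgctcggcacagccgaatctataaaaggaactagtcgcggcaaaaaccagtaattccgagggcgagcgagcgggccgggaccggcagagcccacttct
Acsl3: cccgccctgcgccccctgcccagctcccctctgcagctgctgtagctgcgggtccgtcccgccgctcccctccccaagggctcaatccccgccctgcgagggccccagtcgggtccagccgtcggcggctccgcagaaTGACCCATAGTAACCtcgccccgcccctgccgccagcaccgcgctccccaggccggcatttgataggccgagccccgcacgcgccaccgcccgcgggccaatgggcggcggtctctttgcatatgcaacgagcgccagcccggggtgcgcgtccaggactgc
Srebf1: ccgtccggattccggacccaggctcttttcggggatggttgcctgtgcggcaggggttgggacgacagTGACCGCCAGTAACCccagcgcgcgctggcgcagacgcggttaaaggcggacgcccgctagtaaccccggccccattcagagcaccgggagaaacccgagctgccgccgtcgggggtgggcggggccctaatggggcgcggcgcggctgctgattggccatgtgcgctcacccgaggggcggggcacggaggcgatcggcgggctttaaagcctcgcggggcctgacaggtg
The Abca1 window is chr4:53159846-53160145 on the minus strand, that of Acsl3 is chr1:78657575-78657874 on the plus strand, and that of Srebf1 is chr11:60210422-60210721 on the minus strand, the most downstream of its windows. The sequence that sterol-regulated genes often carry for SREBP, searched as TCACNCCAC, was in none of the 13 windows and in 1.24% of all windows.

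The window of Mt2 is shown for the core of the metal response element, TGCGCNC or TGCACNC, which the zinc-sensing factor MTF1 binds. It holds 4 matches over both strands, in capitals. TGCGCNC was found in 15.4% of all windows and TGCACNC in 12.6%, so single matches are common.
Mt2: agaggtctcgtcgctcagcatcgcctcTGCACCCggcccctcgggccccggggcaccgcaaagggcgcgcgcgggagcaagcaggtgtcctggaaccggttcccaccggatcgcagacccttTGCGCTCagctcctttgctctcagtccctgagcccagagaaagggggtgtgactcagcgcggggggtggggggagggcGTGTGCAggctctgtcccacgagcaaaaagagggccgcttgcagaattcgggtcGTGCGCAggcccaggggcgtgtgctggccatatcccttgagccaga
This window is chr8:94172368-94172667 on the plus strand of GRCm38.p6, with RefSeq as its source.

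Abcg1, which encodes a transporter that passes cholesterol to high-density lipoprotein and is a known LXR target in macrophages, had the largest change of the 17 genes. It lies at chr17:31057675-31117988 (ENSMUSG00000024030). It was at 20.5 and 10.1 CPM in B12 + MAT2Ai MEFs 61.3 and 61.5, against 3.12 and 1.498 CPM in B12 MEFs, so the groups did not overlap. The fitted log2 difference was 2.73 ± 0.12 (SE), or 6.63-fold higher, with an adjusted p of 2.9e-06. The lines differed in level but not in the size of the change, which was 2.69 in MEF 61.3 and 2.71 in MEF 61.5. It was the gene still called without the B12 + MAT2Ai library of MEF 61.3 (adjusted p = 7.0e-04) and without that of MEF 61.5 (adjusted p = 1.8e-04). It was not called without the block for MEF line.

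Abca1 encodes the exporter that loads cholesterol and phospholipid onto apolipoprotein A-I, and it stands next to Abcg1 in the efflux pathway. It was at 226 and 176 CPM in B12 + MAT2Ai MEFs, against 114 and 95.7 CPM in B12 MEFs. The log2 difference was 0.93 ± 0.14, with an adjusted p of 0.038. Of the 16 alternative fits, 9 kept this call and 7 lost it, without a change of direction. The call was lost without either SAM library (adjusted p = 0.054 and 0.057 for MEFs 61.3 and 61.5), without either B12 + MAT2Ai library (0.39 and 0.69) and with robust estimation (0.46). Mylip, whose product IDOL is a ubiquitin ligase and a known LXR target, was at 52.3 and 55.0 CPM in B12 + MAT2Ai MEFs, against 33.5 and 32.5 CPM in B12 MEFs (log2 difference 0.70 ± 0.09, adjusted p = 0.013).

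Lpcat3 encodes the enzyme that puts polyunsaturated acyl chains into lysophosphatidylcholine. It was at 79.9 and 71.8 CPM in B12 + MAT2Ai MEFs, against 61.6 and 54.0 CPM in B12 MEFs (log2 difference 0.39 ± 0.06, adjusted p = 0.038). Srebf1 was at 152 and 163 CPM in B12 + MAT2Ai MEFs, against 108 and 103 CPM in B12 MEFs (log2 difference 0.57 ± 0.07, adjusted p = 0.0099). The Lpcat3 call was also lost without either NSC library (adjusted p = 0.091 and 0.062) and without B12 of MEF 61.5 (0.065). In both genes the change was of similar size in the 2 lines, 0.37 and 0.41 for Lpcat3 and 0.49 and 0.66 for Srebf1.

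**Figure D1:**
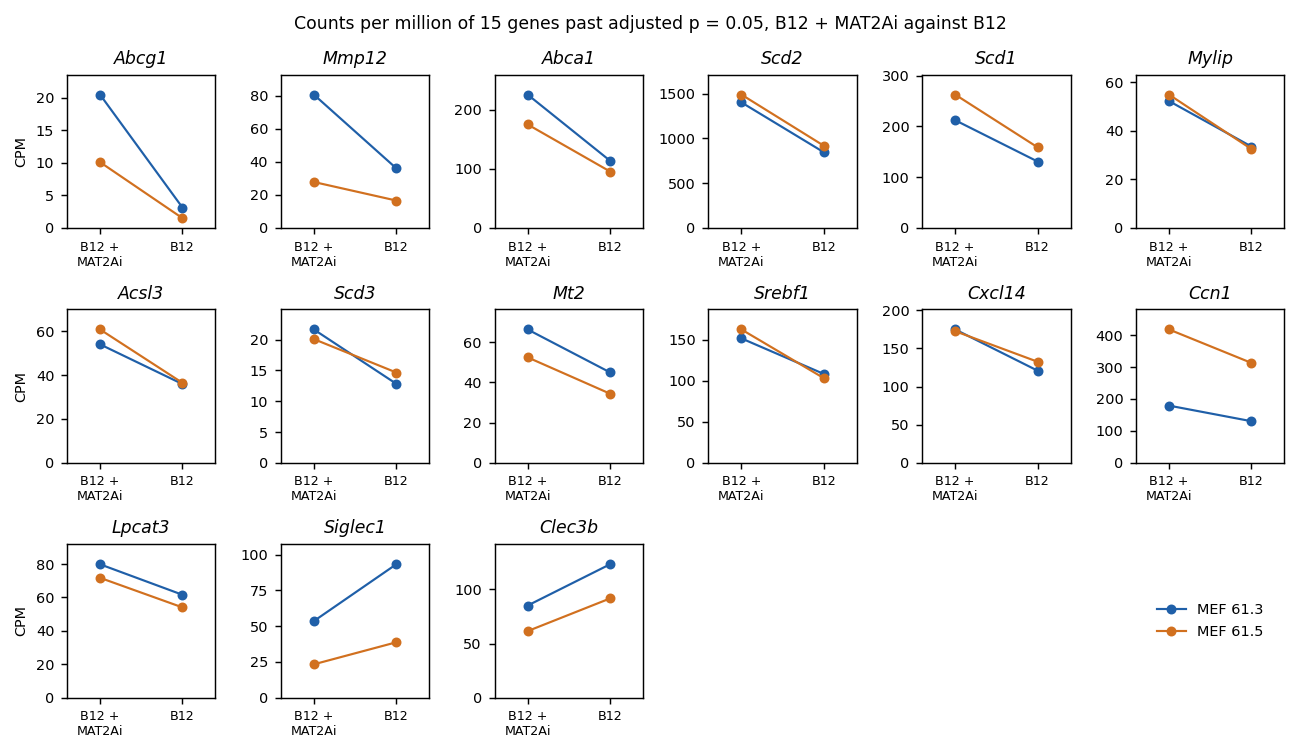
CPM (vertical axis, from 0) of 15 of the 17 genes past an adjusted p of 0.05, in B12 + MAT2Ai and B12 libraries, with a line joining the libraries of each MEF line. In each panel both lines slope the same way, as in Abcg1 with 20.5 and 10.1 CPM in B12 + MAT2Ai MEFs and 3.12 and 1.498 CPM in B12 MEFs.

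Among the 16 genes listed as sterol efflux genes and LXR targets, 14 passed the filter, 5 of them rose (Abcg1, Abca1, Mylip, Srebf1 and Lpcat3) and 0 fell. The median log2 difference of the 14 was 0.23, beside -3.2e-05 for all 19392 genes, with 0.37 in MEF 61.3 and 0.12 in MEF 61.5. The median was 0.07 when the B12 culture of MEF 61.3 was left out. The other members were mixed. Apoe, the lipoprotein component secreted by macrophages and fibroblasts, was at 120 and 99.8 CPM in B12 + MAT2Ai MEFs and at 88.4 and 88.8 CPM in B12 MEFs, short of the test (log2 difference 0.29 ± 0.12, adjusted p = 0.59). Lpl (-1.3e-04 ± 0.07) and Cd5l (-0.0034 ± 0.17) had log2 differences close to 0, and Smpdl3a had -0.17 ± 0.07. Abcg5 and Abcg8, sterol exporters of liver and gut, did not pass the filter.

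The receptors themselves did not change past the test. Of 7 listed LXR, RXR and corepressor genes, 6 passed the filter and 0 were called, with a median log2 difference of -0.13. Without B12 of MEF 61.3 the median was -0.22, and without B12 of MEF 61.5 it was -0.02. Nr1h3, which encodes LXR alpha, was at 4.48 and 3.40 CPM in B12 + MAT2Ai MEFs and at 5.13 and 4.02 CPM in B12 MEFs (log2 difference -0.22 ± 0.13, adjusted p = 0.70).

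The stearoyl-CoA desaturases place the double bond that turns saturated into monounsaturated fatty acids. Scd2, their main form in many embryonic tissues, was at 1403 and 1490 CPM in B12 + MAT2Ai MEFs, against 845 and 918 CPM in B12 MEFs. Its log2 difference was 0.71 ± 0.07, or 1.64-fold, with an adjusted p of 0.0032. Scd1 was at 212 and 263 CPM in B12 + MAT2Ai MEFs, against 131 and 159 CPM in B12 MEFs (log2 difference 0.71 ± 0.07, adjusted p = 0.0037). Scd3 was at 21.7 and 20.1 CPM in B12 + MAT2Ai MEFs, against 12.8 and 14.7 CPM in B12 MEFs (log2 difference 0.60 ± 0.09, adjusted p = 0.049). Scd3 had the highest adjusted p among the called genes, and the next gene outside, Adm, was at 0.052. It was not called without NSC of MEF 61.3 (adjusted p = 0.072). Scd4 had a log2 difference of 0.58 ± 0.12 that did not pass (adjusted p = 0.19). The 4 genes are neighbours on chromosome 19 with similar sequence, so reads of the weaker ones may in part come from the stronger ones, and this was not tested.

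Acsl3 encodes a lipid droplet enzyme that activates fatty acids with coenzyme A. It was at 54.1 and 60.9 CPM in B12 + MAT2Ai MEFs, against 35.9 and 36.5 CPM in B12 MEFs (log2 difference 0.66 ± 0.07, adjusted p = 0.0037). The other acyl-CoA synthetases in the list were not called, with log2 differences of -0.07 ± 0.08 for Acsl1, 0.08 ± 0.06 for Acsl4 and 0.04 ± 0.08 for Acsl5.

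Over the 32 listed genes of fatty acid synthesis, desaturation and elongation, 29 passed the filter, 5 rose (Scd1, Scd2, Scd3, Acsl3 and Srebf1, which is also in the LXR target list) and 0 fell. Their median log2 difference was 0.13, 0.15 in MEF 61.3 and 0.12 in MEF 61.5. In both lines 22 of the 29 were positive, beside 5916 of all 19392 genes. The genes of the synthetic steps did not pass the test. Fasn, fatty acid synthase, was at 288 and 287 CPM in B12 + MAT2Ai MEFs and at 254 and 276 CPM in B12 MEFs (log2 difference 0.12 ± 0.08, adjusted p = 0.75). Acly, which supplies acetyl-CoA, had -0.08 ± 0.06, and Acaca, acetyl-CoA carboxylase, had 0.22 ± 0.09 (adjusted p = 0.59). The polyunsaturate desaturases Fads2 (0.32 ± 0.06, adjusted p = 0.12) and Fads1 (0.21 ± 0.06, adjusted p = 0.36) did not pass.

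Cholesterol synthesis genes, which SREBP2 controls, did not pass the test. All 31 listed genes passed the filter and 0 were called, with a median log2 difference of 0.07, or 0.02 without B12 + MAT2Ai of MEF 61.3. The largest value was that of Cyp51, lanosterol demethylase, with 202 and 201 CPM in B12 + MAT2Ai MEFs and 170 and 171 CPM in B12 MEFs (log2 difference 0.24 ± 0.06, adjusted p = 0.32). Of 15 tested genes of triglyceride synthesis and lipid droplets 0 were called, with a median of -0.05. Of 18 genes of phosphatidylcholine synthesis and remodelling, Lpcat3 alone was called. Pemt, which makes phosphatidylcholine with methyl groups from S-adenosylmethionine, was at 1.84 and 2.17 CPM in B12 + MAT2Ai MEFs and at 1.89 and 1.63 CPM in B12 MEFs (log2 difference 0.18 ± 0.20).

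**Figure D2:**
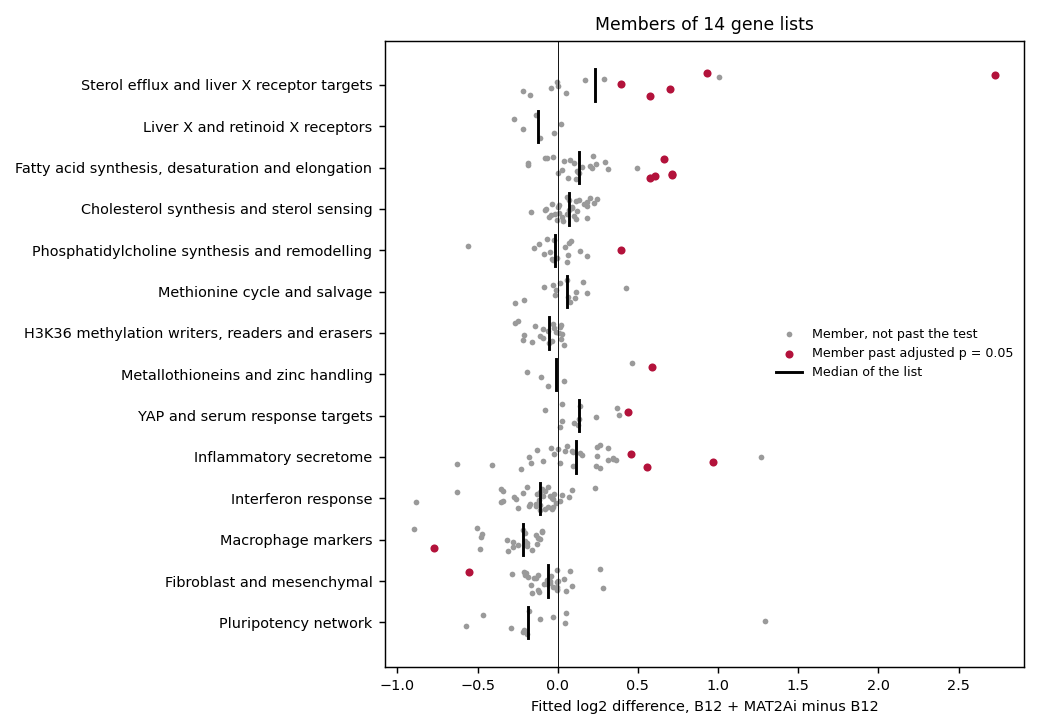
Fitted log2 difference, B12 + MAT2Ai minus B12 (horizontal axis), of each tested member of 14 gene lists (rows), with members past an adjusted p of 0.05 in red and the median of each list as a black bar. The median lies at 0.23 for sterol efflux genes and LXR targets, at 0.13 for fatty acid genes and at -0.22 for macrophage markers.

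The targeted enzyme is inhibited at the level of the protein, and its transcript was not used as a check of the labels. Mat2a was at 213 and 219 CPM in B12 + MAT2Ai MEFs and at 195 and 185 CPM in B12 MEFs. This log2 difference of 0.18 ± 0.06 did not pass (adjusted p = 0.54). Mat2a with B12 + MAT2Ai had a log2 difference of 0.30 ± 0.06 against SAM (adjusted p = 0.012). Against NSC it was 0.27 ± 0.06 (adjusted p = 0.040). Against B12, Mat2b, the regulatory subunit of MAT2A, had -0.02 ± 0.07. Mettl16, the RNA methyltransferase that controls Mat2a splicing, had -0.07 ± 0.07. Among 15 tested genes of the methionine cycle and salvage 0 were called, with a median of 0.06. Without B12 of MEF 61.3 the median was 0.02. It was 0.01 without B12 of MEF 61.5 and without B12 + MAT2Ai of MEF 61.3. Ahcy, which clears S-adenosylhomocysteine, had 0.16 ± 0.06 (adjusted p = 0.59), Mtr had -0.21 ± 0.08 (adjusted p = 0.58), and Amd1, which commits S-adenosylmethionine to polyamines, had 0.07 ± 0.06. Cd320, the receptor for B12 bound to transcobalamin, was at 14.4 and 15.1 CPM in B12 + MAT2Ai MEFs and at 11.98 and 12.6 CPM in B12 MEFs (log2 difference 0.27 ± 0.08, adjusted p = 0.48).

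Of 21 listed writers, readers and erasers of H3K36 methylation 0 were called. Their median log2 difference was -0.05. In both lines 11 of them were negative and 1 positive, beside 5803 and 5916 of all 19392 genes. Without B12 of MEF 61.3 the median was -0.10. It was -0.10 without B12 + MAT2Ai of MEF 61.3 and -0.01 without B12 of MEF 61.5. In the 4 libraries alone 2 of these genes were called lower, beside 236 of all 18738 genes tested there. Setd2, which deposits H3K36me3, was at 97.54 and 92.8 CPM in B12 + MAT2Ai MEFs and at 109 and 112 CPM in B12 MEFs (log2 difference -0.22 ± 0.09, adjusted p = 0.59, and 0.047 in the 4 libraries alone). Kdm4a and Kdm4b, demethylases of that mark, had -0.03 ± 0.06 and -0.09 ± 0.07. These are transcript levels, and the marks were not measured in these files.

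Metallothioneins bind zinc and copper. Mt2 rose to 66.4 and 52.5 CPM in B12 + MAT2Ai MEFs, against 45.0 and 34.4 CPM in B12 MEFs (log2 difference 0.59 ± 0.07, adjusted p = 0.013). Its neighbour Mt1 was at 114 and 70.6 CPM in B12 + MAT2Ai MEFs and at 77.0 and 55.3 CPM in B12 MEFs, short of the test (log2 difference 0.46 ± 0.08, adjusted p = 0.12). Of the 6 tested metallothionein and zinc genes Mt2 alone was called. In the 4 libraries alone 2 were called higher, beside 77 of all 18738 genes. Slc30a1, a zinc exporter that MTF1 also controls, had 0.04 ± 0.08.

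Secreted and matrix genes gave further higher calls. Mmp12, macrophage elastase, was at 80.6 and 27.8 CPM in B12 + MAT2Ai MEFs, against 36.1 and 16.6 CPM in B12 MEFs. The ranges of the groups overlapped, since MEF 61.5 with MAT2Ai lay below MEF 61.3 without it, while within each line the treated library was higher, by 1.16 in MEF 61.3 and 0.74 in MEF 61.5 (fitted log2 difference 0.97 ± 0.11, adjusted p = 0.0088). Ccn1, a matricellular protein gene that YAP and serum response factor drive, was at 179 and 418 CPM in B12 + MAT2Ai MEFs, against 130 and 313 CPM in B12 MEFs (log2 difference 0.44 ± 0.06, adjusted p = 0.033). Here the groups overlapped, since MEF 61.5 had the higher level in both. Its relative Ccn2 had 0.38 ± 0.06 and did not pass (adjusted p = 0.063). The chemokine gene Cxcl14 was at 175 and 173 CPM in B12 + MAT2Ai MEFs, against 121 and 133 CPM in B12 MEFs, which did not overlap (log2 difference 0.46 ± 0.06, adjusted p = 0.032).

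Over 32 tested genes of an inflammatory secretome list, 3 rose, Mmp12 and Cxcl14 among them, and 0 fell, with a median of 0.12. Without B12 of MEF 61.3 the median was 0.25. In the 4 libraries alone 9 were called higher and 2 lower, beside 77 and 236 of all 18738 genes. Without either B12 + MAT2Ai library 0 were called. Mmp9, another macrophage and fibroblast protease, had a log2 difference of the other sign that did not pass, -0.63 ± 0.11 (adjusted p = 0.12). Of 12 tested YAP and serum response targets, Ccn1 alone was called and the median was 0.13, or 0.08 without B12 of MEF 61.3. In the 4 libraries alone 2 of these targets were called higher, beside 77 of all 18738 genes. Of 17 immediate early genes 0 were called, with a median of 0.16 that was 0.29 without B12 + MAT2Ai of MEF 61.3 and -0.02 without that of MEF 61.5, and Egr1 had 0.20 ± 0.08.

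Siglec1, a sialic acid receptor of macrophages also called sialoadhesin, fell to 53.5 and 23.3 CPM in B12 + MAT2Ai MEFs, against 93.3 and 38.7 CPM in B12 MEFs. The log2 difference was -0.77 ± 0.09 (adjusted p = 0.012), with -0.80 in MEF 61.3 and -0.73 in MEF 61.5. The ranges of the groups overlapped, since the 2 lines differed more in level than the treatments did. Clec3b, which encodes the plasminogen-binding protein tetranectin, was at 85.1 and 61.5 CPM in B12 + MAT2Ai MEFs, against 123 and 91.7 CPM in B12 MEFs (log2 difference -0.56 ± 0.06, adjusted p = 0.0099). Its groups did not overlap.

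The 7 lower genes that came next by p-value did not pass the test. They included Lepr, the leptin receptor (-0.59 ± 0.09, adjusted p = 0.063), Tnxb, a tenascin of connective tissue (-0.70 ± 0.12), Ston2 (-0.49 ± 0.08), and the leukocyte genes Fyb (-0.46 ± 0.08), Ms4a6b (-0.64 ± 0.11) and Lcp2 (-0.56 ± 0.10, adjusted p = 0.10). Lepr was at 6.95 and 6.00 CPM in B12 + MAT2Ai MEFs and at 10.4 and 9.04 CPM in B12 MEFs.

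Markers of macrophages, which can be carried along in MEF cultures, moved with the lower genes. All 23 listed markers had reads, and their summed level was 5151 CPM in MEF 61.3 and 2498 CPM in MEF 61.5 with B12 + MAT2Ai, against 5796 and 3204 CPM with B12, ratios of 0.889 and 0.78. The summed level of the 32 fibroblast genes was lower as well, at 109800 and 99150 CPM with B12 + MAT2Ai against 120700 and 115700 CPM with B12, ratios of 0.91 and 0.857. All 23 macrophage markers had a negative fitted log2 difference, beside 9699 of all 19392 genes, and their median was -0.22. Of the 23, 21 were lower in both lines, beside 5803 of all genes, but Siglec1 alone passed the test. That count depended on the fit. With no filter 9 were called lower, beside 368 of all 35105 genes. In the 4 libraries alone 9 were, beside 236 of all 18738 genes. The Siglec1 call was lost without either B12 + MAT2Ai library. Csf1r, the receptor for macrophage growth factor, was at 134 and 58.8 CPM in B12 + MAT2Ai MEFs and at 173 and 87.9 CPM in B12 MEFs (log2 difference -0.48 ± 0.14, adjusted p = 0.44, and 0.0012 in the 4 libraries alone). Adgre1, which encodes F4/80, had -0.51 ± 0.14 and Lyz2, lysozyme, had -0.28 ± 0.15. The median was -0.08 when the B12 culture of MEF 61.5 was left out and -0.39 when that of MEF 61.3 was. In these bulk samples fewer macrophages and less of these transcripts per cell cannot be told apart. Abcg1 and Mmp12, which macrophages express strongly, moved in the opposite direction to the marker list. The part of macrophages in the 17 changes was not tested.

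**Figure D3:**
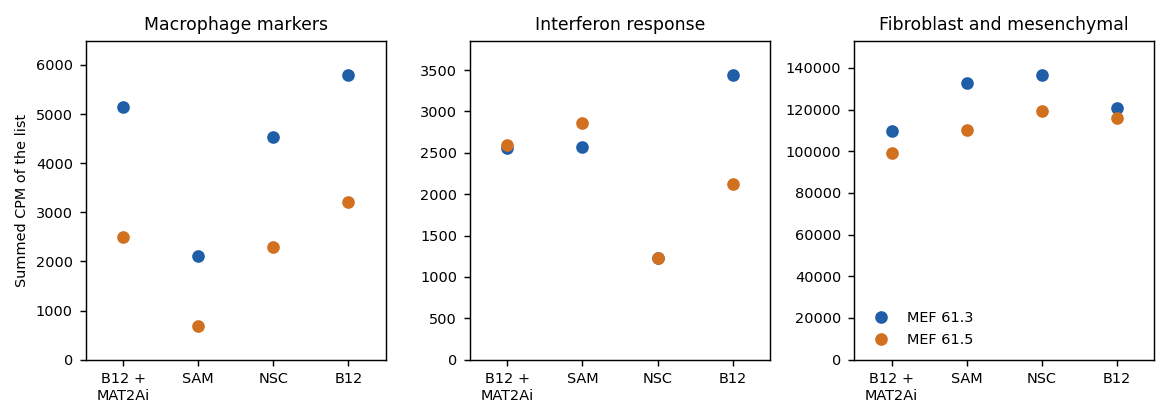
Summed CPM (vertical axis, from 0) of the macrophage, interferon and fibroblast lists in each of the 8 libraries, with 1 point per MEF line. The macrophage sum with B12 + MAT2Ai was 5151 and 2498 CPM, against 5796 and 3204 CPM with B12, and the interferon sum was 2558 and 2590 CPM, against 3442 and 2121 CPM.

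Fibroblast genes checked the cell type. Col1a1 was at 27100 and 24390 CPM in B12 + MAT2Ai MEFs and at 29770 and 29780 CPM in B12 MEFs (log2 difference -0.21 ± 0.08, adjusted p = 0.56), and the 32 listed fibroblast and mesenchymal genes had a median of -0.06, with Clec3b alone called. The median was -0.11 without B12 of MEF 61.3 and -0.14 without B12 + MAT2Ai of MEF 61.5. It was -0.02 without B12 of MEF 61.5 and -0.03 without B12 + MAT2Ai of MEF 61.3. In the 4 libraries alone 1 was called higher and 5 lower, beside 77 and 236 of all 18738 genes. Markers of most other cell types were low in these 4 libraries. Summed levels were at most 162 CPM for the chondrocyte, endothelial and neural lists and at most 25.9 CPM for skeletal muscle. The adipocyte list was at 587 to 1014 CPM in the 4 libraries, and which cells gave these reads was not tested. Adipoq itself was below 1 CPM in all 4, and Myod1 had at most 1 read.

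The reprogramming factors did not change past the test. Reads of the cassette and of the endogenous genes are counted together. Sox2 was at 4.91 and 8.52 CPM in B12 + MAT2Ai MEFs and at 5.59 and 11.9 CPM in B12 MEFs (log2 difference -0.36 ± 0.15, adjusted p = 0.59). Pou5f1, which encodes Oct4, had -0.20 ± 0.14, Klf4 had -0.09 ± 0.06 and Myc had 0.14 ± 0.08. Of 28 pluripotency genes 12 passed the filter and 0 were called, with a median of -0.19. The median was -0.07 without B12 of MEF 61.5 and -0.18 without B12 of MEF 61.3. In the 4 libraries alone 2 were called lower, beside 236 of all 18738 genes. Nanog stood apart from the list at 0.890 and 0.877 CPM in B12 + MAT2Ai MEFs and 0.258 and 0.473 CPM in B12 MEFs, with few reads and no call (log2 difference 1.29 ± 0.34, adjusted p = 0.35). Cdh1, the epithelial cadherin gained early in reprogramming, was at 2.07 and 2.21 CPM in B12 + MAT2Ai MEFs and at 1.95 and 2.26 CPM in B12 MEFs. Of 25 tested imprinted genes 0 were called, with a median of -0.11, and Igf2r had -0.30 ± 0.08 (adjusted p = 0.37). The median was -0.01 without B12 of MEF 61.5 and -0.17 without B12 of MEF 61.3. With no filter 5 imprinted genes were called lower, beside 368 of all 35105 genes. In the 4 libraries alone 5 were, beside 236 of all 18738.

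The interferon response was where the MEF lines went apart. Of 38 listed genes, 35 were lower with B12 + MAT2Ai in MEF 61.3 and higher in MEF 61.5. Over all 19392 genes this held for 3640. The median log2 difference was -0.52 in MEF 61.3 and 0.31 in MEF 61.5, and 0 genes were called, with 2 at an unadjusted p under 0.05. Isg15, a ubiquitin-like modifier, was at 54.3 and 67.8 CPM in B12 + MAT2Ai MEFs and at 92.0 and 53.6 CPM in B12 MEFs. Ifit3 was at 74.6 and 85.8 CPM in B12 + MAT2Ai MEFs and at 113 and 55.7 CPM in B12 MEFs. The B12 + MAT2Ai libraries were close to each other and the B12 libraries apart, with summed levels of 2558 and 2590 CPM against 3442 and 2121 CPM. The fitted median was 0.34 with the B12 culture of MEF 61.3 left out and -0.52 without that of MEF 61.5. It was 0.02 without the B12 + MAT2Ai culture of MEF 61.3 and -0.25 without that of MEF 61.5. The sign of the median thus changed with the library left out, in either treatment.

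**Figure D4:**
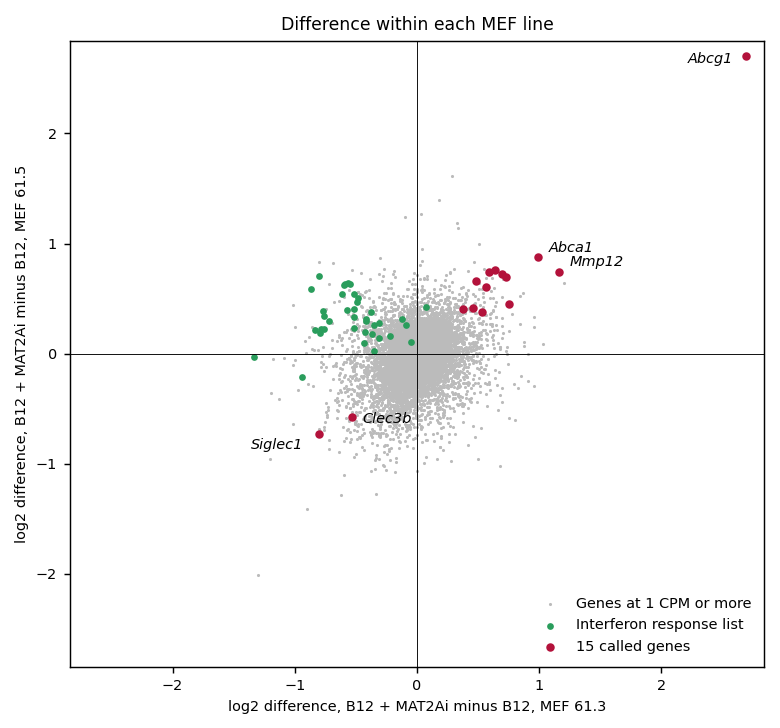
Log2 difference, B12 + MAT2Ai minus B12, in MEF 61.3 (horizontal axis) and MEF 61.5 (vertical axis) for genes at a mean of 1 CPM or more (grey), the interferon response list (green) and 15 of the 17 called genes (red). Abcg1 stands at 2.69 and 2.71, and the interferon genes lie mostly in the upper left, with medians of -0.52 and 0.31.

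Across all genes the 2 lines shared little. Of the 19392 genes, 60.4% had the same sign in both lines, and 62.6% of the 15533 with a mean of 1 CPM or more over the 4 libraries. Past 2-fold, 307 genes were counted in MEF 61.3 and 360 in MEF 61.5, with 24 past it in the same direction in both and 8 in opposite directions. Of those 24, 22 were below 1 CPM and the others were Abcg1 and Cx3cr1, the fractalkine receptor of monocytes, which is named after its values were seen. Cx3cr1 was at 0.373 and 0.666 CPM in B12 + MAT2Ai MEFs and at 1.00 and 2.87 CPM in B12 MEFs (log2 difference -1.88 ± 0.39, adjusted p = 0.20).

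The called genes were then read in MEFs given SAM or NSC. Against B12 these share the same reference libraries, so their values are set side by side. Comparisons of B12 + MAT2Ai with SAM and NSC reuse the libraries in which these genes were called. They are therefore not separate support for the calls. Under SAM 7.71% of genes were called against B12, and under NSC 1.91%. Between treatments, 8.17% were called for B12 + MAT2Ai against SAM and 3.58% for B12 + MAT2Ai against NSC. Abcg1 was at 20.5 and 10.1 CPM with B12 + MAT2Ai, at 1.51 and 0.695 CPM with SAM, at 5.89 and 2.47 CPM with NSC, and at 3.12 and 1.498 CPM with B12. The fitted log2 difference of B12 + MAT2Ai was 3.80 ± 0.14 against SAM (adjusted p = 3.6e-07) and 1.89 ± 0.11 against NSC (adjusted p = 2.7e-05). The order of the treatments was the same in both lines.

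The lipid genes were also higher with B12 + MAT2Ai than with SAM or NSC, with the same limit. Scd2 was at 1403 and 1490 CPM with B12 + MAT2Ai, at 875 and 892 CPM with SAM, at 927 and 890 CPM with NSC, and at 845 and 918 CPM with B12. Acsl3 was at 54.1 and 60.9 CPM with B12 + MAT2Ai, at 34.6 and 35.7 CPM with SAM, at 34.5 and 34.9 CPM with NSC, and at 35.9 and 36.5 CPM with B12. For Srebf1 the log2 difference of B12 + MAT2Ai was 0.73 ± 0.07 against SAM (adjusted p = 5.8e-05) and 0.56 ± 0.07 against NSC (adjusted p = 0.0017). Abca1 was less separate in MEF 61.3, where NSC gave 182 CPM beside 226 CPM with B12 + MAT2Ai and 114 CPM with B12. In MEF 61.5 it was at 176 CPM with B12 + MAT2Ai, 90.4 CPM with NSC and 95.7 CPM with B12.

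Other genes followed other orders. Mmp12 was higher still with NSC, at 123 and 45.3 CPM, and lower with SAM, at 16.6 and 4.87 CPM, beside 80.6 and 27.8 CPM with B12 + MAT2Ai and 36.1 and 16.6 CPM with B12. Siglec1 was at 53.5 and 23.3 CPM with B12 + MAT2Ai, at 35.99 and 11.3 CPM with SAM, at 42.7 and 16.1 CPM with NSC, and at 93.3 and 38.7 CPM with B12. The macrophage marker sum was 2101 and 681 CPM with SAM and 4540 and 2303 CPM with NSC. Clec3b went the other way under SAM (174 and 113 CPM) and NSC (172 and 119 CPM), above the 123 and 91.7 CPM of B12, while it was at 85.1 and 61.5 CPM with B12 + MAT2Ai. Its log2 difference from B12 was -0.56 ± 0.06 with B12 + MAT2Ai, 0.40 ± 0.06 with SAM (adjusted p = 0.0019) and 0.43 ± 0.06 with NSC (adjusted p = 0.0061).

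**Figure D5:**
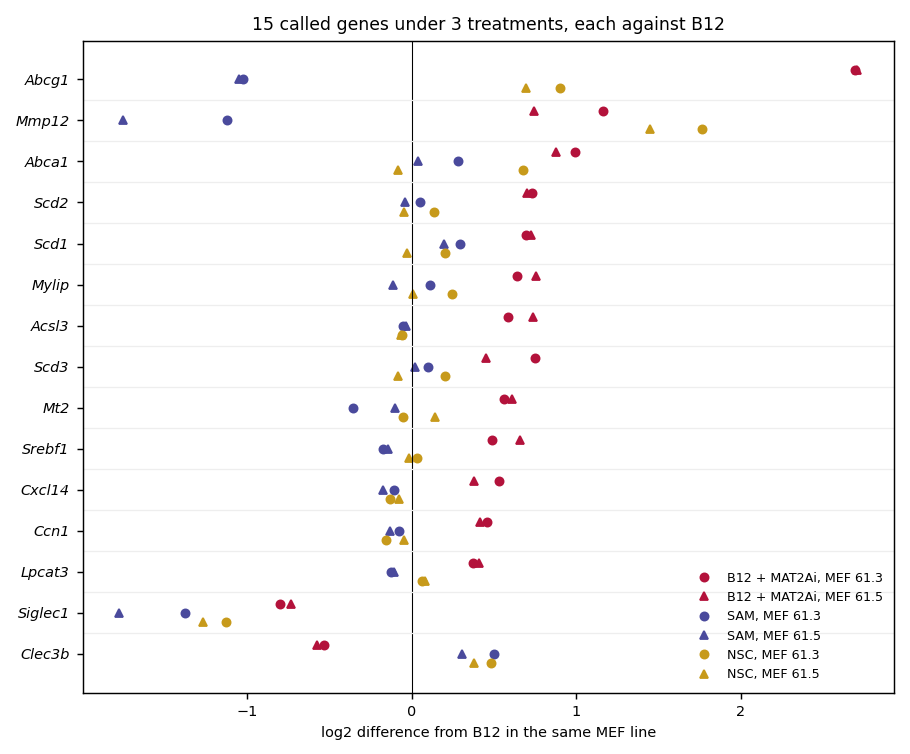
Log2 difference from B12 in the same MEF line (horizontal axis) of 15 of the 17 called genes (rows) with B12 + MAT2Ai, SAM and NSC, circles for MEF 61.3 and triangles for MEF 61.5. Abcg1 stands at 2.69 and 2.71 with B12 + MAT2Ai, at -1.02 and -1.05 with SAM and at 0.90 and 0.70 with NSC.

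The 4 libraries held 35067301 and 27498180 counted reads (B12 + MAT2Ai, MEFs 61.3 and 61.5) and 35668982 and 37761374 (B12). Mitochondrial genes took 1.44% to 1.61% of the reads. The library of B12 + MAT2Ai in MEF 61.5 was the shallowest of the 8. None of 4 pairs compared, by treatment in 1 line or by line in 1 treatment, was as close as sampling noise alone would give, with a mean squared difference of 6.4 times the Poisson variance between treatments in MEF 61.3, 12.5 times in MEF 61.5 and 18.1 or 29.8 times between lines of 1 treatment.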

How the data were processed

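RNA of 8 MEF cultures was sequenced from stranded mRNA libraries. According to the submitters' notes and the study's methods, the authors used STAR 2.5.2b with mm10 (GRCm38) for alignment and featureCounts of Rsubread, in reverse-stranded mode on Ensembl release 97, for counting, added up technical replicates, and deposited raw counts. From these counts, edgeR 4.0.16 (R 4.3.3) was run here with filterByExpr (minimum count 10), TMM scaling and a quasi-likelihood fit of all 8 libraries with treatment and MEF line as terms. P-values were adjusted by Benjamini-Hochberg over all genes, with 0.05 as the threshold. The block follows the embryo of origin, and same-line libraries deviated together (r = 0.424 to 0.559). SE is the log2 difference over the root of F. CPM use TMM-scaled totals, and differences within a line are log2 CPM with a prior count of 2. The fit was tested on simulated data. Of the genes, 55227 matched GENCODE M21, which gave coordinates (GRCm38).

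Alternatives were DESeq2 1.42.0, its size factors in edgeR, other filters, no block, the 4 libraries alone, robust estimation, limma-voom (limma 3.58.1) and leaving out each library. The genes named are those called, the next lower genes by p-value to make 10, a set of pathway genes, and called members of 39 lists. Other list members that are named were picked after their values were seen. Members and lists were chosen with earlier results of these data known. A few genes are not reported here. Libraries of SAM and NSC entered the fit. Tests that involve them are given for some named genes and as shares of all genes, and their other values are shown side by side.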

Additional observations from a re-analysis of the deposited data

How the results depend on the processing

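Over 16 alternatives, each of the 17 called genes kept its direction. Of them, 13 lost the call in 3 alternatives (no block, and without each B12 + MAT2Ai library), Abcg1 in 1 (no block), Scd3 in 5, Lpcat3 in 6 and Abca1 in 7. The count of called genes was 43 in DESeq2 (22 higher, 21 lower), 452 with no filter on low counts (84 higher, 368 lower), 313 in the 4 libraries alone (77 higher, 236 lower) and 23 with robust estimation (16 higher, 7 lower). Without the replicate block it was 0, with 358 genes at an unadjusted p under 0.05. It was 17 with DESeq2 size factors, 15 with a filter at 1 CPM and 19 in limma-voom. Leaving out 1 library gave 1 to 373 called genes. The lowest count came without either B12 + MAT2Ai library and the highest without B12 of MEF 61.3. The shift of the median over all genes stayed under 0.01 in every fit. Leaving out 1 library turned the sign of 4 genes that were not called. Their log2 differences then ran from -0.12 to 0.086 for Mat2b, -0.056 to 0.0028 for Kdm4a, -0.38 to 0.016 for Pou5f1 and -0.10 to 0.16 for Cdh1. With a prior count of 0.5 in place of 2, 53 genes in place of 24 passed 2-fold the same way in both lines. Why the counts differ between fits was not tested. With 2 libraries per treatment and 3 residual degrees of freedom, the count of 17 is not a stable estimate of how many genes changed.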
